A study of Mus musculus with 16 samples.

Results

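Mitochondrial fatty acid oxidation genes are described here in mouse liver, as the 33 genes named by role as acyl-CoA synthetases, carnitine shuttle proteins, enzymes of the beta-oxidation spiral, electron transfer flavoproteins and the uncoupling protein gene Ucp2. All 33 symbols were found once each among the 30463 genes of the deposited table, and all 33 had an adjusted p-value there. Whole-liver RNA was sequenced from 16 mice (wild type, strain C57BL/6N, 14 weeks old), in 4 groups of 4. The groups were vehicle on control diet, diethylnitrosamine (DEN, an alkylating liver carcinogen) on control diet, vehicle on a diet labelled 60% high fat, and DEN on that high fat diet. Injections of vehicle or DEN were given at 2 weeks of age, and the high fat groups changed diet at 6 weeks of age. The labels state neither the sex of the mice nor a dose of DEN.

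Beta-oxidation breaks fatty acids down in the mitochondrial matrix to acetyl-CoA, which the liver oxidises further or turns into ketone bodies. A fatty acid is first joined to coenzyme A by an acyl-CoA synthetase, long chains then cross the inner membrane as carnitine esters, and each turn of the spiral comprises an acyl-CoA dehydrogenation, a hydration, a second dehydrogenation and a thiolysis. Electrons of the first dehydrogenation pass through electron transfer flavoprotein and its dehydrogenase to ubiquinone. Entry through carnitine palmitoyltransferase 1 is inhibited by malonyl-CoA, and many genes of the pathway are known targets of the nuclear receptor PPAR alpha in liver.

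The authors' table holds 1 comparison and does not name its sides. They are called the positive and the negative side here, by the sign of the log2 fold change of a gene that is higher there, and neither is assigned to a diet or to DEN. The 16 columns of values per library carry codes that match no sample label, so no value per mouse, no spread over mice and no test of diet or DEN is given. Precision is the authors' standard error (SE) of the log2 fold change and the 95% normal interval made from it. A gene is called when its adjusted p-value in the authors' deposited table is below 0.05. The hepatocyte markers Alb, Ttr and Apoa1 had mean normalized counts of 1079857, 73798 and 191653 there, and all 5 adipocyte markers looked for were without an adjusted p or absent, with Adipoq at 0.387 and Ucp1, the brown fat uncoupling protein gene, at 0.0849. Of the 5 skeletal muscle markers 4 were in the table, with Acta1 at 0.434, Ckm at 0.253 and Mylpf, the one with an adjusted p, at 11.3 (mean normalized count).

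The windows upstream of the RefSeq starts of 5 genes on which the results turn are shown first, on GRCm38.p6. Each is 250 bases long, 5′ to 3′ on the strand of the gene, and ends at the base before the RefSeq start. Gene spans printed below are from GENCODE, whose starts differ for some of them. The window of Cpt1a lies wholly inside its GENCODE span, and those of Eci1 and Echs1 run a short way into theirs. Eci1, Acads, Hadh and Echs1 are called genes of the spiral and its auxiliary steps, and Cpt1a, the entry enzyme that was not called and lay on the negative side, is set beside them. Capitals mark every match, on either strand, to AGGTCA, the hexamer that nuclear receptors such as PPAR alpha bind in pairs, and to GGGCGG, the GC box. The windows are chr17:24426433-24426682 (plus strand) for Eci1, chr5:115119347-115119596 (minus strand) for Acads, chr3:131272102-131272351 (minus strand) for Hadh, chr7:140116422-140116671 (minus strand) for Echs1 and chr19:3323051-3323300 (plus strand) for Cpt1a.
Eci1: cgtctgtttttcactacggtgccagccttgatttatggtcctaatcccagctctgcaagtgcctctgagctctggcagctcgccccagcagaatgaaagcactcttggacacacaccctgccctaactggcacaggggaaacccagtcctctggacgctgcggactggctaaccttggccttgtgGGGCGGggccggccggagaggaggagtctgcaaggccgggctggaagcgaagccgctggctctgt
Acads: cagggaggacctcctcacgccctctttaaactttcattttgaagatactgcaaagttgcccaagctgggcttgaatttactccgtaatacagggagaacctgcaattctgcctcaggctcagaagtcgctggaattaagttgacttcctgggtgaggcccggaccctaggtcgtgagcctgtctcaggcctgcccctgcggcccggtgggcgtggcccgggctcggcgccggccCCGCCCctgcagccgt
Hadh: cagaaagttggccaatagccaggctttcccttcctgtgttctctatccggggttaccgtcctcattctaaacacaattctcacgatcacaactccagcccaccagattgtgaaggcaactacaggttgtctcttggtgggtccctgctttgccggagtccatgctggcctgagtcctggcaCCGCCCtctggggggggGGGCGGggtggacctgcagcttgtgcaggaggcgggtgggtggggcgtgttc
Echs1: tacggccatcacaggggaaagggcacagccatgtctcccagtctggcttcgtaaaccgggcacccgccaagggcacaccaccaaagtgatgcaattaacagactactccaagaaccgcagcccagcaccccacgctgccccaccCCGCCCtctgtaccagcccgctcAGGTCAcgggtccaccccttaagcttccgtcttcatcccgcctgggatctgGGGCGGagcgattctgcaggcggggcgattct
Cpt1a: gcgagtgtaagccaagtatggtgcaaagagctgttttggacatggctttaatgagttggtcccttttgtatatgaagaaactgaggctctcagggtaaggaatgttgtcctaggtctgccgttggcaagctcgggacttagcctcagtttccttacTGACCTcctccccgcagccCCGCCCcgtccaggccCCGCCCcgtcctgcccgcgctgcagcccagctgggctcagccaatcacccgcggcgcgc

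All 5 windows held a GC box and none held TATAAA. The hexamer AGGTCA was found once in the window of Echs1 and once in that of Cpt1a, and in neither of the windows of Eci1, Acads and Hadh. RefSeq windows were at hand for 29 of the 33 members. Over these, 5 (17.2%) held AGGTCA on either strand, namely the called genes Acsm1 and Echs1 and the uncalled genes Acadm, Acadvl and Cpt1a. The hexamer was in 13.73% of 11512 tested genes with a window and in 14.02% of all 32851 windows. The direct repeat AGGTCANAGGTCA, which contains the hexamer, was matched with at most 2 mismatches by 2 members (6.9%), Echs1 and Etfa, beside 3.34% of tested genes, and with 0 mismatches by 0 members, beside 0.05%. TCAAGGTCA, the element of oestrogen-related receptors, which also contains the hexamer, was matched by 0 members, beside 0.33% of tested genes. A GC box stood in 65.5% of the members' windows and in 59.87% of those of tested genes, CCAAT in 48.3% and 40.02%, and TATAAA in 0.0% and 8.82%. These are matches of letters in 250 bases, and enhancers and introns were not searched.

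The called genes belonged to activation, the spiral and the auxiliary steps, and all were higher on the positive side. No carnitine shuttle gene was called, but in steps of so few genes 0 or 1 call is near the share of all tested genes. Of the 33 members 7 were called positive, namely Eci1, Acads, Acad10, Hadh, Echs1, Acsm1 and Decr1, and 0 were called negative. Of 16288 tested genes in the authors' deposited table, 6.57% were called, 3.67% positive and 2.90% negative, so the members' 21.2% called positive stood above the share of all genes. The median log2 fold change of the members was 0.24 (26 positive and 7 negative in sign), beside -0.0044 over all tested genes. At an unadjusted p under 0.05 there were 16 members, of which 3 were negative (Acsl4, Slc22a5 and Cpt1a), and 3102 of all tested genes.

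All members are well expressed, with mean normalized counts from 355.1 for Acad9 to 24191 for Acsl1. Among the 5773 tested genes at least as abundant as Acad9, 9.48% were called, 4.78% positive and 4.69% negative, with a median log2 fold change of -0.017. The changes were small: Eci1 was the largest at 0.76 on the log2 scale, 0 members reached 2-fold, and for all 26 uncalled members the 95% interval lay inside 2-fold in either direction. The authors' statistics are wider than a standard normal over all tested genes (median absolute deviation 1.44, scaled so that a standard normal gives 1). With every statistic divided by that value 0 members stayed called, while 142 of all genes (0.872%) were called. Benjamini-Hochberg adjustment over every gene of the table gave 4 called members, beside 2.52% of all genes, and Bonferroni adjustment 1, Eci1, beside 1.14%.

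**Figure D1:**
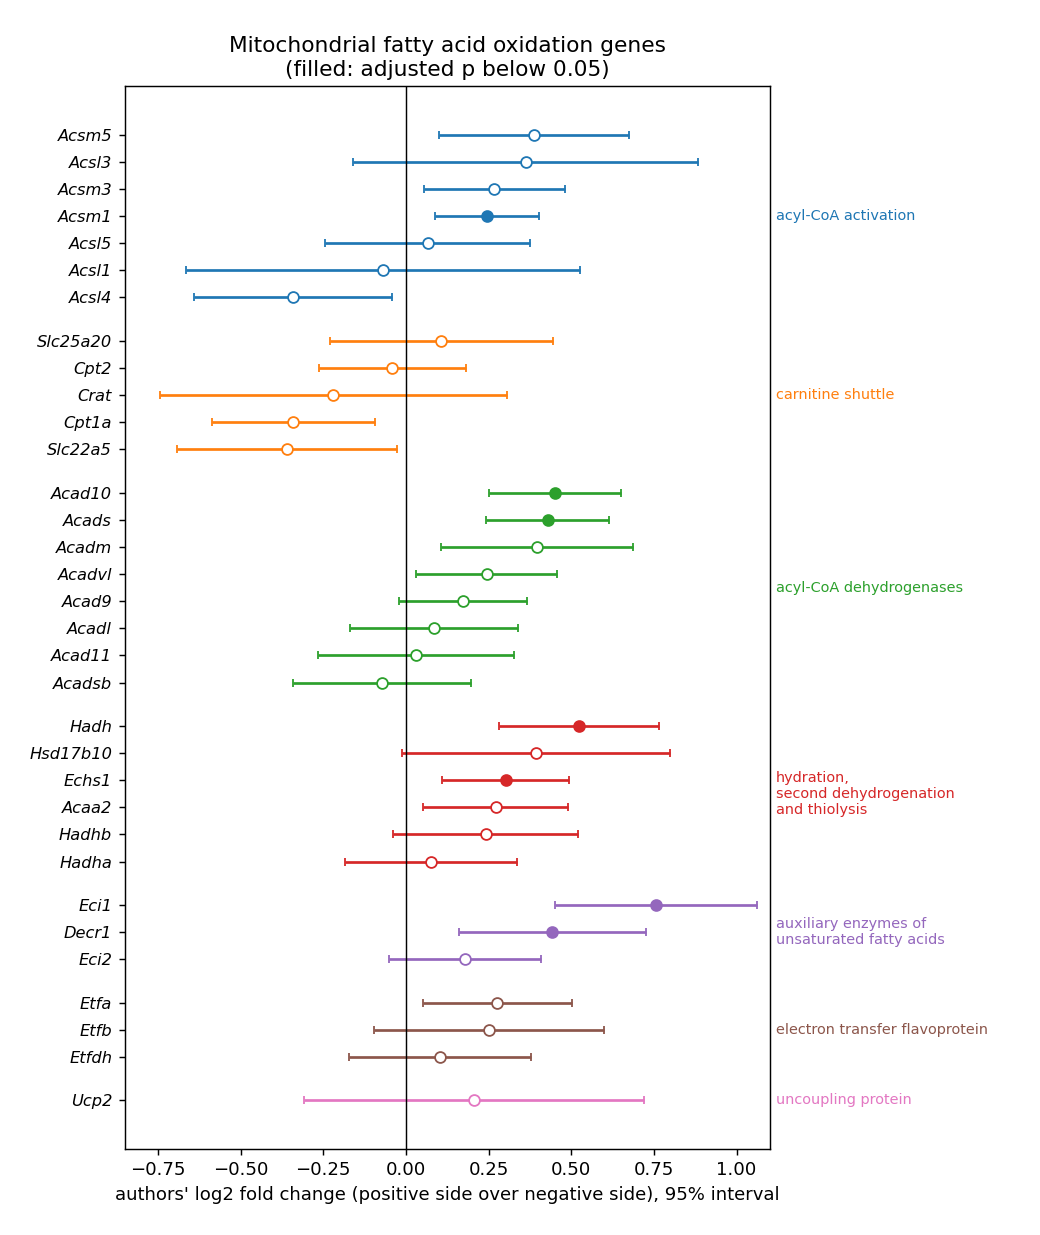
Authors' log2 fold change of each of the 33 genes (x axis, positive side over negative side) with its 95% interval from the authors' SE, by step of the pathway; filled points have an adjusted p below 0.05. The 7 filled points all lie right of 0, and 4 of the 5 carnitine shuttle genes lie left of it.

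Acyl-CoA activation was mixed, with 1 of 7 synthetase genes called. Acsm1, a medium-chain acyl-CoA synthetase of the mitochondrial matrix, was higher on the positive side in the authors' deposited table, at a log2 fold change of 0.25 ± 0.08 (SE) and an adjusted p of 0.0389. Its matrix relatives Acsm5 at 0.39 ± 0.15 (adjusted p = 0.0907) and Acsm3 at 0.27 ± 0.11 (adjusted p = 0.126) were not called (the authors' deposited table, log2, SE), although the fold of Acsm5 was nominally the wider. All 3 lie in 1 cluster on chromosome 7 of GRCm38, in which Acsm5 spans 119519463 to 119545551, Acsm1 119607026 to 119662515 and Acsm3 119760923 to 119787513. Acsm2, between Acsm5 and Acsm1, had a mean normalized count of 19.3 and a change of -0.012 ± 0.36 (the authors' deposited table, log2, SE). Reads of related copies may be split among them, and exons of Acsm3 and Acsm5 overlap genes of the opposite strand (Eri2 and Pdilt), of which Pdilt was itself called positive at 0.83 ± 0.21 (the authors' deposited table, log2, SE).

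None of the 4 long-chain synthetase genes was called. Acsl1, the main long-chain enzyme of liver and the most abundant member by count, was at -0.069 ± 0.30 (the authors' deposited table, log2, SE), which is also the widest SE among the members. Acsl5, an enzyme of mitochondria and endoplasmic reticulum, was at 0.066 ± 0.16 and Acsl3, an enzyme of endoplasmic reticulum and lipid droplets, at 0.36 ± 0.27 (the authors' deposited table, log2, SE). Acsl4, which prefers arachidonic acid, was at -0.34 ± 0.15 (the authors' deposited table, log2, SE, adjusted p = 0.181), with a 95% interval from -0.64 to -0.041. Acsl1 and Acsl4 were thus the 2 synthetase genes of negative sign.

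The carnitine shuttle was the one step with a negative median, -0.22 over 5 genes, and 0 of the 5 were called. That count is near the 6.57% of all tested genes that were called. Cpt1a, carnitine palmitoyltransferase 1 of the liver type and the malonyl-CoA-sensitive step (ENSMUSG00000024900, chromosome 19 from 3322334 to 3385733 in GRCm38), was at -0.34 ± 0.13 (the authors' deposited table, log2, SE), or 0.790 of its level on the negative side, with an interval of that ratio from 0.665 to 0.938. In the authors' deposited table its unadjusted p was 0.00711 and its adjusted p 0.0834. Its test statistic there was -2.69. With the trend of all statistics on GC content, exon length and abundance removed, that of Cpt1a was -1.89 (Benjamini-Hochberg adjusted p = 0.312). Slc22a5, the plasma membrane carnitine transporter OCTN2, was at -0.36 ± 0.17 (the authors' deposited table, log2, SE, adjusted p = 0.215). Crat, which makes short-chain acylcarnitines, was at -0.22 ± 0.27 and Cpt2, which re-forms acyl-CoA on the matrix side, at -0.041 ± 0.11 (the authors' deposited table, log2, SE). Slc25a20, the carnitine-acylcarnitine translocase, was the one shuttle gene of positive sign, at 0.11 ± 0.17 (the authors' deposited table, log2, SE). The 95% interval of Cpt1a, which ends at -0.092, lay wholly below the intervals of 17 other members, all 7 called genes among them. That is a comparison of intervals from the same libraries, and the difference between genes was not tested.

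Among the acyl-CoA dehydrogenases, the enzymes of the first step, 2 of 8 were called and 7 of 8 were positive in sign. Acads, the short-chain dehydrogenase (ENSMUSG00000029545, chromosome 5 from 115110299 to 115119346), was at 0.43 ± 0.10 (the authors' deposited table, log2, SE, adjusted p = 0.000521), or 1.35-fold with an interval from 1.18 to 1.53. Acad10, a less studied family member (chromosome 5 from 121621026 to 121660514), was at 0.45 ± 0.10 (the authors' deposited table, log2, SE, adjusted p = 0.000652). They differed widely in level, with 1475 normalized counts per kilobase of exon for Acads and 75.2 for Acad10. Acadm, the medium-chain dehydrogenase, was at 0.40 ± 0.15 (adjusted p = 0.0851) and Acadvl, the very-long-chain enzyme of the inner membrane, at 0.24 ± 0.11 (adjusted p = 0.175), and neither was called (the authors' deposited table, log2, SE). Acadl, the long-chain dehydrogenase of rodents, was at 0.085 ± 0.13 and Acad11 at 0.030 ± 0.15 (the authors' deposited table, log2, SE). Acad9, which also serves the assembly of respiratory complex I, was at 0.17 ± 0.10, and Acadsb, which acts on branched-chain acyl-CoA from isoleucine, was at -0.073 ± 0.14 (the authors' deposited table, log2, SE).

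Acad12, a paralogue that lies 2.1 kb from Acad10 on the same strand of chromosome 5 (121596775 to 121618938), was also called positive at 0.69 ± 0.17 (the authors' deposited table, log2, SE, adjusted p = 0.00368), with a mean normalized count of 147.4 beside 456.2 for Acad10. The sources used here do not say how reads shared by such copies were counted. On the other side of Acad10, the start of Brap lies 49 bases away on the opposite strand, and Brap was at -0.34 ± 0.15 (the authors' deposited table, log2, SE, adjusted p = 0.179). The signs of these 2 genes with neighbouring starts thus differed.

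Of the 6 genes of hydration, second dehydrogenation and thiolysis, 6 were positive in sign and 2 were called. Hadh, the 3-hydroxyacyl-CoA dehydrogenase of medium and short chains (ENSMUSG00000027984, chromosome 3 from 131233419 to 131272101), was at 0.52 ± 0.12 (the authors' deposited table, log2, SE, adjusted p = 0.00128), or 1.44-fold with an interval from 1.22 to 1.70. Echs1, the short-chain enoyl-CoA hydratase (chromosome 7 from 140105710 to 140116476), was at 0.30 ± 0.10 (the authors' deposited table, log2, SE, adjusted p = 0.0370). Exons of Echs1 overlap those of Paox on the opposite strand by 142 bases, and Paox, with a mean normalized count of 262.5 beside 3970 for Echs1, was at 0.057 ± 0.17 (the authors' deposited table, log2, SE). Acaa2, the matrix thiolase, was at 0.27 ± 0.11 (the authors' deposited table, log2, SE, adjusted p = 0.132). Hsd17b10, which acts on short and branched-chain substrates and is also a subunit of mitochondrial RNase P, was at 0.39 ± 0.21 (the authors' deposited table, log2, SE, adjusted p = 0.284).

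Hadha and Hadhb encode the alpha and beta subunits of the trifunctional protein, which carries out the last 3 reactions of a turn on long chains, and their annotated starts lie 86 bases apart on opposite strands of chromosome 5. Hadha was at 0.076 ± 0.13 and Hadhb at 0.24 ± 0.14 (the authors' deposited table, log2, SE), with neither called, and their 95% intervals (-0.18 to 0.33, and -0.039 to 0.52) overlapped over most of their length. Per kilobase of merged exon the level of Hadha was 920.0 normalized counts and that of Hadhb 262.4, so the subunit genes with adjoining starts were not at 1 level on this scale.

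Of the 3 auxiliary enzymes of unsaturated fatty acids 2 were called, and all 3 were positive in sign. Eci1, the enoyl-CoA delta isomerase of the matrix, which moves a double bond so that unsaturated chains can go on through the spiral (ENSMUSG00000024132, chromosome 17 from 24426641 to 24439348), was at 0.76 ± 0.16 (the authors' deposited table, log2, SE, adjusted p = 0.000117). That is 1.69-fold with an interval from 1.37 to 2.09, in the authors' deposited table. Decr1, the 2,4-dienoyl-CoA reductase that serves polyunsaturated chains, was at 0.44 ± 0.14 (the authors' deposited table, log2, SE, adjusted p = 0.0389). Eci2, the isomerase found in mitochondria and peroxisomes, was not called at 0.18 ± 0.12 (the authors' deposited table, log2, SE, adjusted p = 0.427). The interval of Eci1 lay above those of 15 other members, Eci2 among them, while those of the other called members except Acsm1 overlapped it. Eci3, the neighbour of Eci2 on chromosome 13, had a mean normalized count of 1.79 and no adjusted p in the authors' deposited table. Exons of 14 of the 33 members overlap an exon of another gene of that table, and of the 7 called members this holds for Echs1 alone.

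Electron transfer genes were all positive in sign and 0 of 3 were called. Etfa and Etfb, the subunits of electron transfer flavoprotein, were at 0.28 ± 0.12 (adjusted p = 0.136) and 0.25 ± 0.18 (adjusted p = 0.472), and Etfdh, the ubiquinone oxidoreductase that takes their electrons, at 0.10 ± 0.14 (adjusted p = 0.762) (the authors' deposited table, log2, SE). Ucp2, an inner membrane carrier of the uncoupling protein family, was at 0.21 ± 0.26 (the authors' deposited table, log2, SE, adjusted p = 0.741). In whole liver Ucp2 is also expressed by Kupffer cells. All 6 Kupffer cell markers were negative in sign, with a median log2 fold change of -0.62 and a summed mean normalized count of 6926. Of these, 1 was called (Timd4) and 4 had an unadjusted p under 0.05, beside 3102 of all 16288 tested genes. All 6 markers of sinusoidal endothelium were negative too, with a median of -0.48 and a sum of 3389. Of the endothelial markers, 1 was called (Bmp2) and 3 had an unadjusted p under 0.05. The 6 hepatocyte markers had a median of -0.20, with 5 of 6 negative, 0 called and 1 at an unadjusted p under 0.05. The 5 cholangiocyte markers were all positive in sign, with a median log2 fold change of 0.43, 0 calls and a summed mean normalized count of 860.4. Of the 5 neutrophil markers 4 were negative, with a median of -0.51, 0 calls, 1 at an unadjusted p under 0.05 and a sum of 798.4. The 6 T and B cell markers had a median of -0.14, with 3 negative, 0 called, 1 at an unadjusted p under 0.05 and a sum of 34.9, and the 5 stellate cell markers a median of -0.14, with 4 negative, 0 called and a sum of 4432. In bulk tissue fewer cells of a type and less RNA per cell cannot be told apart, and the part of these markers in the members' values was not tested.

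**Figure D2:**
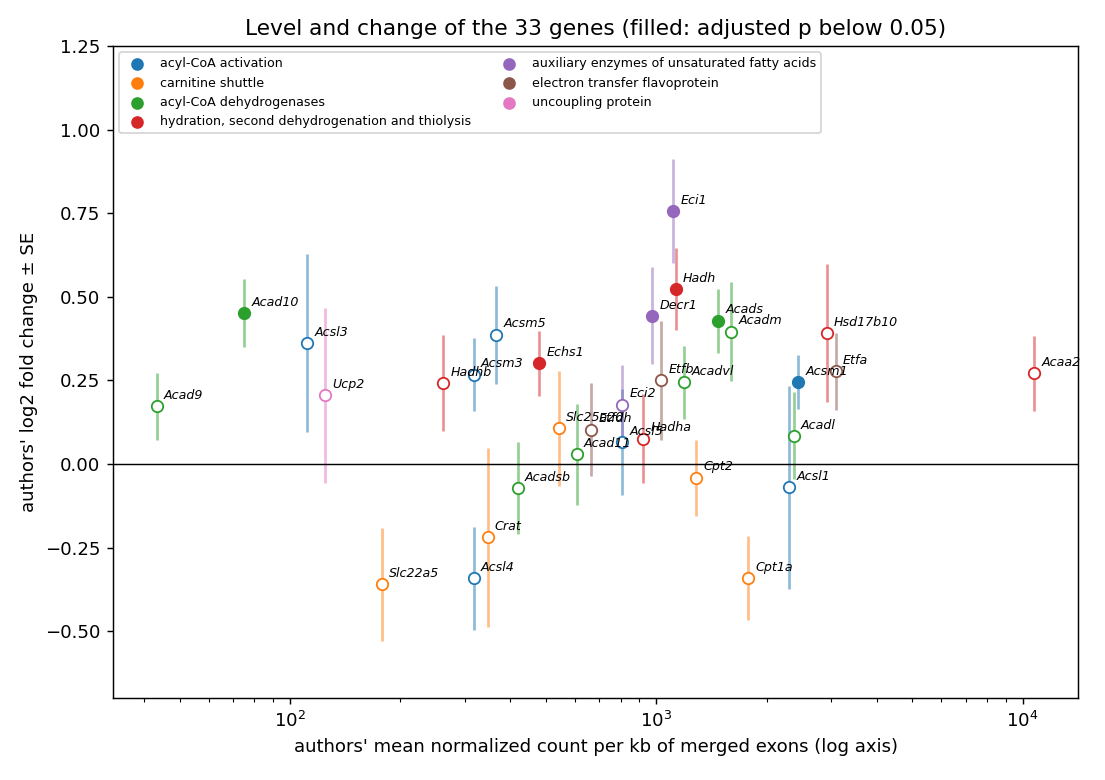
Authors' log2 fold change ± SE (y axis) against the authors' mean normalized count per kilobase of merged exons (x axis, log scale) for the 33 genes, coloured by step; filled points are called. Called genes appear from 75.2 (Acad10) to 2444 (Acsm1) counts per kilobase, and Acaa2 stands apart at 10750.

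Levels per length put the thiolase gene Acaa2 first at 10750 normalized counts per kilobase of exon, followed by Etfa at 3091, Hsd17b10 at 2916, Acsm1 at 2444, Acadl at 2372 and Acsl1 at 2308. The lowest were Acad9 at 43.3, Acad10 at 75.2, Acsl3 at 111.7 and Ucp2 at 124.5. Cpt1a stood at 1779, above Cpt2 at 1284 and Slc25a20 at 543.4. The spread of these levels over mice is not given here, so neighbours in the order cannot be told apart, and the exons of all annotated transcripts were merged, which lowers the value of genes with many isoforms. Together the 33 genes held 0.74% of the summed mean normalized counts of all genes.

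How firmly each member can be read depends on its SE, which ran from 0.080 for Acsm1 to 0.30 for Acsl1. The smallest statistic called among all genes was 2.94 in size, so a log2 fold change of 0.24 was enough for a call of Acsm1, while Acsl1 would have needed 0.89, Crat 0.79, Acsl3 0.78 and Ucp2 0.77. Cpt1a would have needed 0.37 and had 0.34 in size. Acadm and Decr1 had SEs of 0.148 and 0.145 and log2 fold changes of 0.40 and 0.44, and they fell on opposite sides of the threshold. The call thus separates genes of nearly equal value here. Of the 26 uncalled members, 9 had a 95% interval without 0, of which 6 were positive (Acsm3, Acsm5, Acadvl, Acadm, Acaa2 and Etfa) and 3 negative. With the 7 called members they are the 16 of 33 at an unadjusted p under 0.05, beside 3102 of all 16288 tested genes.

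**Figure D3:**
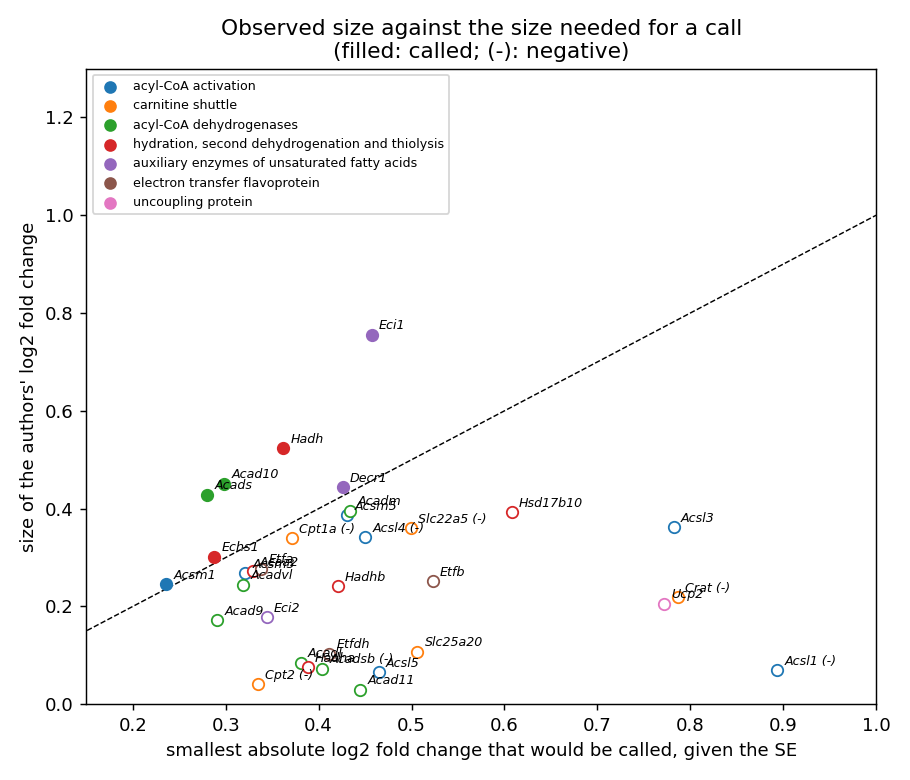
Size of the authors' log2 fold change (y axis) against the smallest size that would have been called given the gene's SE (x axis); points above the dashed line of equality are the 7 called genes. Acadm, Acsm5 and Cpt1a lie just under the line, and Acsl1, Crat, Acsl3 and Ucp2 lie far to the right, where only wide changes could have been called.

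Genes that feed or control the pathway were counted in 8 further lists of 88 genes, of which 82 were tested, with 15 called positive and 2 negative. Over all tested genes 6.57% were called, 3.67% positive and 2.90% negative, and 9.48% among those at least as abundant as Acad9. A positive excess was thus not particular to the members, and a single call in a list of 10 or 13 genes is near these shares. Of 13 regulators, 0 were called positive and 1 negative, with a median of -0.12 and 4 positive in sign. At an unadjusted p under 0.05 there were 5 regulators, all of negative sign, beside 3102 of all 16288 tested genes. Ppara, the receptor gene itself, was at 0.0089 ± 0.17 (log2, SE, adjusted p = 0.987), while Ppargc1a, a coactivator of oxidation genes, was at -1.30 ± 0.22 (the authors' deposited table, log2, SE, adjusted p = 5.9e-07). Of 10 genes of malonyl-CoA and AMP-activated kinase control, 1 was called positive and 1 negative, and both encode beta subunits of the kinase. Prkab2 was at 1.06 ± 0.32 (adjusted p = 0.0245) with a mean normalized count of 83.3, and Prkab1 at -0.26 ± 0.08 (adjusted p = 0.0226) with 462.6 (the authors' deposited table, log2, SE). Acacb, the acetyl-CoA carboxylase whose malonyl-CoA acts on CPT1, was at -0.011 ± 0.16 and Mlycd, which removes malonyl-CoA, at -0.23 ± 0.14 (the authors' deposited table, log2, SE), with neither called.

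Downstream and parallel routes held further calls, all positive. Of the genes of ketone body synthesis, Acat1, the mitochondrial acetoacetyl-CoA thiolase, was called at 0.41 ± 0.11 and Bdh1, the 3-hydroxybutyrate dehydrogenase, at 0.74 ± 0.20 (the authors' deposited table, log2, SE). Of 15 peroxisomal oxidation genes 4 were called, with a median of 0.26. Among them were the thiolases Acaa1a at 0.53 ± 0.10 and Acaa1b at 1.76 ± 0.33, and Pex11a, a factor of peroxisome division, at 0.94 ± 0.17 (the authors' deposited table, log2, SE). The thiolases are close copies whose reads may be shared.

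Among 16 further genes known as PPAR alpha targets, 5 were called, all positive, and 6 were negative in sign, among them Cyp4a10 at -0.79 ± 0.56 (the authors' deposited table, log2, SE). The 5 were Vnn1 at 1.63 ± 0.28, Cd36 at 1.43 ± 0.26, Fgf21 at 1.21 ± 0.39, Fabp1 at 0.92 ± 0.25 and Plin2 at 0.77 ± 0.25 (the authors' deposited table, log2, SE). The Cyp4a genes of this list were of both signs, and none was called. Of 10 genes of flavin supply and acyl-CoA handling 1 was called, Dbi, the acyl-CoA binding protein gene, at 0.44 ± 0.15 (the authors' deposited table, log2, SE, adjusted p = 0.0472). Of 6 genes of odd chain and propionyl-CoA breakdown 6 were positive in sign and 0 were called, 1 having an unadjusted p under 0.05. Of 14 paralogues of the members 8 were tested and 1 was called, Acad12, while Cpt1b and Ucp3, the muscle forms, had mean normalized counts of 1.85 and 1.07 and no adjusted p. The lists were set beside the members for description, and no difference between lists was tested.

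**Figure D4:**
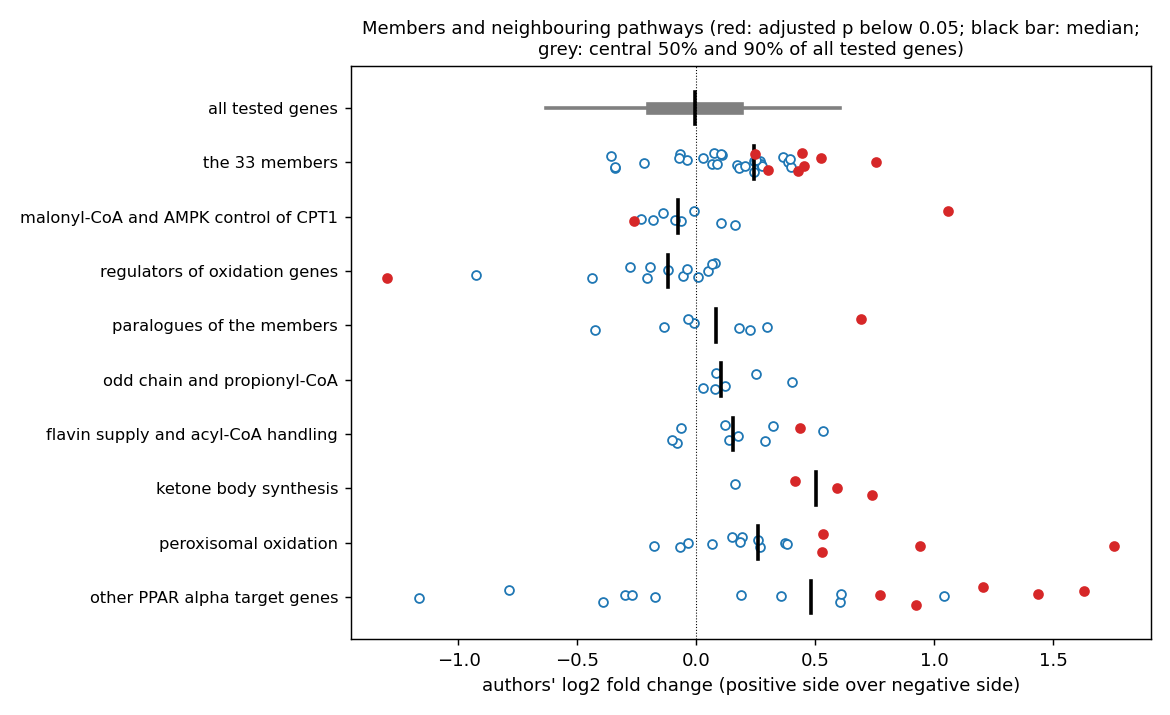
Authors' log2 fold change (x axis) of the tested genes in the 33 members and in 8 further lists (rows), with the median as a black bar, called genes in red, and the central 50% and 90% of all tested genes in grey. The members' median is 0.24 and that of peroxisomal oxidation 0.26, while the regulators' median is -0.12 with Ppargc1a far to the left.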

How the data were processed

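Trizol RNA of 16 livers was made into stranded mRNA libraries with the KAPA kit, per the labels' protocols. The submitters' processing notes name the build GRCm38 and, without role, order or strand setting, HTSeq 0.11.1, HISAT2, Trimmomatic and FastQC. Per the file headers, the deposited table holds the authors' mean normalized count (a signal), log2 fold change with its SE (also log2), test statistic (a score), p-value and adjusted p-value. The sources used here give neither the authors' tool and model nor the samples compared, although the column names are those that DESeq2 writes, per the file headers. The 16 per-library columns match no label, so they were not used, and the planned count-model tests between groups were not run. Depth per sample is therefore not given.

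Checked on the values, the statistic is the fold change over its SE, the p-value its 2-sided normal p, and the adjusted p-value follows Benjamini-Hochberg over 16288 genes, those without one having lower mean counts. Positions and merged exon lengths came from GENCODE M21 (99.7% of identifiers matched), and upstream windows from RefSeq on GRCm38.p6. Steps were run in Python 3.11.15 with pandas 2.3.3, numpy 2.4.6 and scipy 1.17.1. Of these steps, only the alternative adjustments and statistics were tested on simulated statistics. The members and lists were chosen with earlier results of these data known, so they are described by counts and medians with no list test. By the rule for named genes, all members, called genes of the 8 lists, and Ppara, Ppargc1a and Acacb are named, except some genes that are not reported here; Mlycd, Cyp4a10, Cpt1b, Ucp3, Eci3, Acsm2 and genes next to members were added after their values were seen.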

Additional observations from a re-analysis of the deposited data

How the results depend on the processing

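Alternatives changed the adjustment, the threshold or the statistic. The 7 called members, all positive, were called again when only genes averaging at least 100 normalized counts were adjusted (9.09% of 9315 genes called) and with the statistic less its median (6.53% of all). With the trend on GC content, exon length and abundance removed there were 6, without Acsm1, beside 5.62% of 16269 genes. Fewer members were called, all positive, with Benjamini-Hochberg over every gene of the table (4), Benjamini-Yekutieli (4), a threshold of 0.01 (4) and Bonferroni (1), and with the statistic divided by its scaled median absolute deviation 0 were called. The 4 were the same genes each time (Acad10, Acads, Eci1 and Hadh). Genes called overall were 1070 in the main adjustment, and 768, 389, 491, 185 and 142 under those alternatives. A threshold of 0.10 gave 10, of which 9 were positive and 1, Cpt1a, negative, beside 9.75% of all genes, 5.32% positive. The sign of Acsl1 reversed with the trend removed (adjusted p = 0.644), and 0 other members changed sign. In that setting the statistic of Cpt1a was -1.89 (adjusted p = 0.312), beside -2.69 in the main one. Taken by step, the median log2 fold change of 0.24 became -0.22 in the carnitine shuttle and 0.44 in the auxiliary enzymes. The cause of these shifts was not tested, beyond the stricter limits that the alternatives set by construction. No paired analysis was possible because the columns per library carry no replicate number and match no label; for the same reason other normalizations, refits after a filter on counts per library and leaving out a replicate were not run.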
